A study of Linum usitatissimum with 8 samples.

Results

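The step from DAP5 to DAP10 in developing flax seeds was examined over all genes of the deposited count table, as seeds labelled DAP10 (2 libraries) against seeds labelled DAP5 (2 libraries). The members were all rows of the table, 40518 in number, of which 28749 had enough counts to be tested. RNA came from flax (Linum usitatissimum) seeds of the cultivar Heiya No.14, and 2 later stages of the same cultivar, DAP20 and DAP30, with 2 libraries each, show where each gene stood afterwards. No treatment or genotype other than the cultivar is given for any group, and the labels name the tissue only as seed, without saying whether embryo, endosperm and seed coat were kept together. The labels do not spell out the stage names.

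A flax seed holds an embryo and an endosperm inside a seed coat that comes from the mother plant. In seeds of flowering plants in general, an early phase of cell division and patterning in the embryo and endosperm is followed by a filling phase, in which storage oil and protein accumulate. Linseed is grown for an oil rich in alpha-linolenic acid, and its seed coat makes a mucilage that is released on wetting. The table pairs no gene ID with a name or description, so no gene is given a role here, no list of pathway genes or cell type markers could be applied, and the seed label could not be checked against markers.

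The DAP10 libraries held 15150199 and 12951493 counts and the DAP5 libraries 26500842 and 27691831, so DAP5 was 1.93 times as deep and a count of 0 sets a higher limit at DAP10 (0.0979 CPM) than at DAP5 (0.0390 CPM). CPM puts each gene's count on a common library size, here scaled by the TMM method unless library totals are named. These limits are 3 counts over both libraries of a stage and cover counting error only, and on library totals they were 0.107 CPM at DAP10 and 0.0554 CPM at DAP5. Over 14866 genes averaging 10 CPM or more, replicates were over 2-fold apart for 3.43% of genes at DAP5, for 0.679% at DAP10, for 8.56% at DAP20 and for 1.24% at DAP30. The labels do not state that replicates are separate plants, and a p-value here reflects the spread between 2 libraries per stage, possibly a technical one. In RNA from a whole organ, fewer cells of a type and less RNA per cell cannot be told apart.

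In DAP10 seeds 3564 genes were higher and 3208 were lower than in DAP5 seeds, together 23.6% of the genes tested, or 12.4% that rose and 11.2% that fell (edgeR quasi-likelihood test, Benjamini-Hochberg FDR below 0.05). A rise was 2-fold or more for 2429 genes and 16-fold or more for 390, and a fall was 2-fold or more for 2291 genes and 16-fold or more for 310, with a gene at no count in both libraries of a stage set to its bound. The median log2 fold change was 1.39 among the genes that rose and -1.45 among those that fell, against -0.02 over all genes tested. Both DAP10 libraries lay above both DAP5 libraries in 3563 of the 3564 genes that rose, and both lay below in all 3208 that fell. Over all genes tested, 35.6% had both DAP10 libraries above and 36.4% had both below, so a lack of overlap was common also among genes that were not called.

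**Figure D1:**
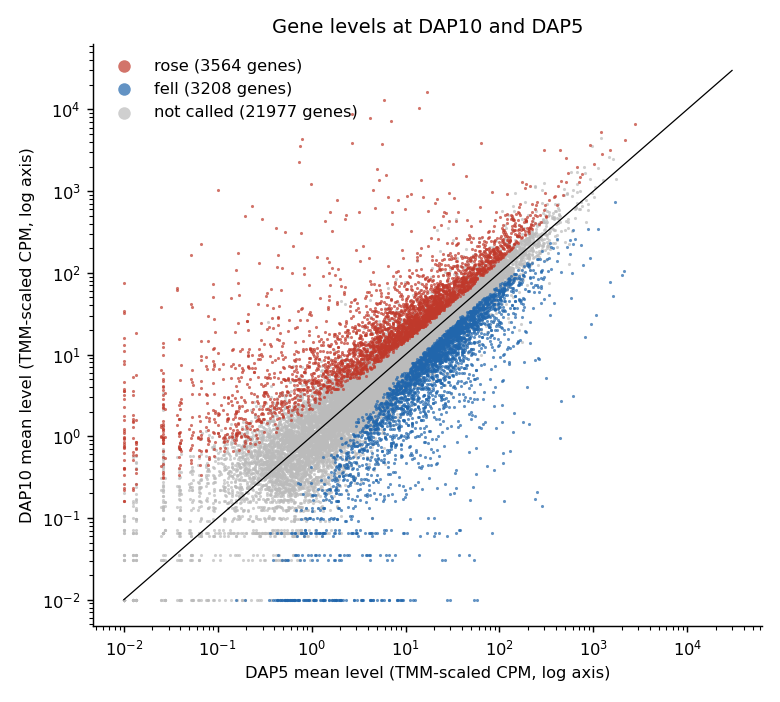
Mean level of each tested gene at DAP10 (vertical, CPM scaled by the TMM method, log axis) against DAP5 (horizontal, same scale), with means below 0.01 CPM drawn at 0.01 and the line of equal levels. The 3564 genes that rose reach the highest DAP10 levels at low DAP5 levels, and the 3208 that fell reach down to no count at DAP10.

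The balance of rises and falls depended on the scaling. With TMM scaling, which takes most genes as unchanged, 52.6% of the called genes rose. With library totals 2100 genes rose and 7002 fell, so that 23.1% rose, and over all genes the log2 fold change had a median of -0.40. Of the 3564 rising genes, 2099 were also called higher with library totals, while all 3208 falling genes were also called lower. The number called was 1818 when DAP10 replicate 1 was left out and 2103 when its replicate 2 was. It was 3376 and 3156 when replicates 1 and 2 of DAP5 were left out, in fits that assume the lone library of a stage to vary like the others.

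Among abundant genes most calls were rises, and among scarce genes most were falls. Genes were split by their mean CPM over all 8 libraries, which include the compared ones and the later stages. A gene that stays up after a rise is high in more libraries than one that stays down after a fall. The split thus fixes this pattern in part, and how far it does was not tested. Of the 73 genes at 1000 CPM or more, 56 rose and 0 fell (edgeR), with a median log2 fold change of 2.23. Between 100 and 1000 CPM, 551 of 1576 genes rose and 87 fell. Between 10 and 100 CPM, 1952 of 13217 rose and 1622 fell, and between 1 and 10 CPM the order turned, with 830 of 10368 that rose and 1210 that fell. Below 1 CPM, 175 of 3515 genes rose and 289 fell, where the median standard error of the log2 fold change was 0.80, against 0.20 between 10 and 100 CPM. In the 2 highest bands and from 10 to 100 CPM the rising share was above the 12.4% of all genes. The falling share was 11.7% between 1 and 10 CPM and 8.22% below 1 CPM, against 11.2% of all genes. In these 2 bands the rising share was 8.01% and 4.98%. Falls thus outnumbered rises among scarce genes because rises were fewer there, not because falls were clearly more common.

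The genes that rose held a much larger part of the DAP10 libraries than of the DAP5 libraries. Their share was 40.8% and 37.4% of the counts in the DAP10 libraries, against 13.3% and 13.6% in the DAP5 libraries. In the later seeds they held 41.3% ± 3.32 of the counts at DAP20 and 42.0% ± 1.42 at DAP30 (SD, n = 2), so their joint share at both later stages stood near that of DAP10. The genes that fell held 5.25% ± 0.177 of the counts at DAP10 and 19.0% ± 0.735 at DAP5, and then 3.96% ± 0.0455 at DAP20 and 4.60% ± 0.302 at DAP30 (SD, n = 2). With calls on library totals, the genes that rose held 27.9% at DAP10 and 5.54% at DAP5, and the genes that fell held 14.6% at DAP10 and 35.8% at DAP5. The shares at DAP5 and DAP10 follow from the calls, which rest on the same libraries, whereas those at DAP20 and DAP30 come from libraries outside the comparison.

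**Figure D2:**
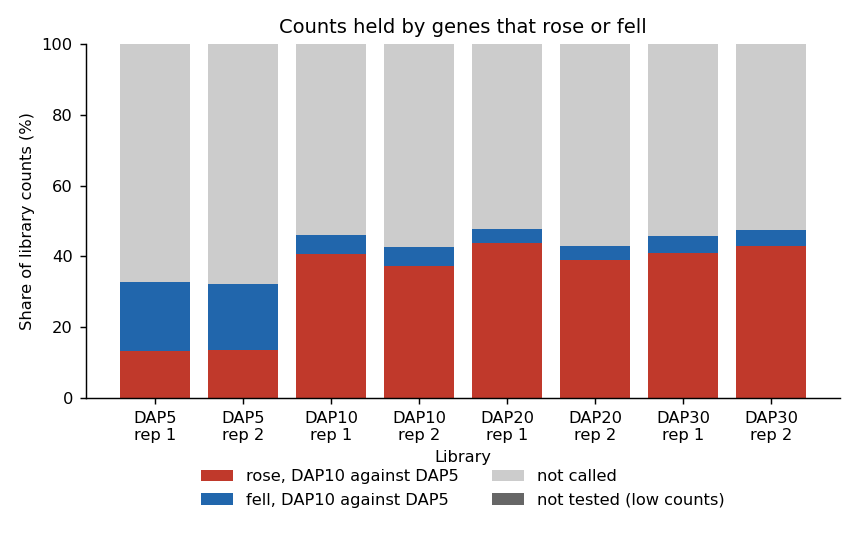
Share of each library's counts (vertical, percent) held by genes that rose, fell or were not called between DAP10 and DAP5, for the 8 libraries in stage order. Genes that rose hold 37.4% to 43.7% of the counts in every library from DAP10 on, and genes that fell hold at most 5.38%.

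A few genes carried much of the gain, while the loss was spread over many. The rising genes gained 25.6 percentage points of the counts between DAP5 and DAP10, and 30 genes made up 50% of that gain. The falling genes fell by 13.8 percentage points, and 254 genes made up 50% of that loss. The 10 genes with the largest gain accounted for 33.7% of it, and the 10 with the largest loss for 12.9%. Genes not called also lost share, from 67.5% of the counts at DAP5 to 55.6% at DAP10 (means, n = 2), which the 13.8 points leave out.

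The 10 genes with the largest gain held similar joint shares of the counts at DAP10 and DAP20 and a smaller one at DAP30, while single genes differed widely at DAP20. Together they took 0.00597% and 0.0298% of the counts in the DAP5 libraries, then 9.91% and 7.42% in the DAP10 libraries. Their joint share was 9.84% and 6.47% in the DAP20 libraries and 1.82% and 1.74% in the DAP30 libraries. Their single levels ran from 3333 to 18341 CPM over the DAP10 libraries and from 0.354 to 94.1 CPM over the DAP5 libraries. None of the 10 genes overlapped, which their choice from called genes made likely in advance, as 3563 of 3564 rising genes did not overlap. At DAP20 they ran from 70.0 to 37988 CPM. Of these genes 5 had their highest mean at DAP10 and 5 at DAP20, on TMM-scaled CPM. The lead of DAP20 was not always clear. In 1 gene the mean was 13616 CPM at DAP20 (19171 and 8060 CPM in its libraries) against 13195 CPM at DAP10. The split was not made on library totals, the scale of the shares. Each of the 5 highest at DAP10 had lost most of its DAP10 mean by DAP20. Their means spanned 3844 to 10329 CPM at DAP10 and 72.7 to 4492 CPM at DAP20. From DAP20 to DAP30 all 10 had a negative log2 fold change, which for the 5 highest at DAP20 follows from that grouping. Of the 10, 2 were called lower (edgeR FDR below 0.05), near the 17.4% of all genes tested.

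Lus10040396.g.BGIv1.0 had the highest level per length of any gene at DAP10, on the length deposited with the table. It measured 18341 and 14252 CPM in the DAP10 libraries, against 2.48 and 31.5 CPM in the DAP5 libraries. Both DAP10 libraries lay far above both DAP5 libraries, while the DAP5 replicates themselves were far apart. The log2 fold change was 9.91 ± 1.34 (SE, edgeR FDR = 0.00298), or 9.01 without DAP5 replicate 1 and 12.68 without DAP5 replicate 2. At DAP20 it measured 37988 and 31196 CPM and at DAP30 6593 and 4509 CPM.

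Lus10022927.g.BGIv1.0 had the next largest gain per length among the called genes. It measured 11774 and 8884 CPM in the DAP10 libraries, against 1.01 and 26.8 CPM in the DAP5 libraries. Its log2 fold change was 9.53 ± 1.60 (SE, edgeR FDR = 0.00659), or 8.58 without DAP5 replicate 1 and 13.31 without DAP5 replicate 2. Every DAP10 library lay above every DAP5 library, as the choice of single genes required, and again the DAP5 replicates were far apart. This gene had its highest mean at DAP10, with 6547 and 2436 CPM at DAP20 and 503 and 606 CPM at DAP30.

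The 10 genes with the largest loss held little of the counts at the later stages, though not all were near 0. Together they held 0.157% and 0.197% of the counts in the DAP10 libraries, against 2.22% and 1.69% in the DAP5 libraries. At DAP20 they held 0.0102% and 0.00897%, and at DAP30 0.00705% and 0.00696%. All 10 had their highest mean at DAP5, and their log2 fold changes fell by between 1.23 and 5.64. Single levels ran from 12.7 to 739 CPM over the DAP10 libraries and from 611 to 2534 CPM over the DAP5 libraries. None of the 10 genes overlapped, which their choice from called genes fixed in advance, as none of the 3208 falling genes did. At DAP30 they ran from 0 to 40.3 CPM. From DAP20 to DAP30, 3 of the 10 were called lower and 0 higher (edgeR), against 17.4% and 15.1% of all genes tested.

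Lus10006666.g.BGIv1.0 had the largest loss per length. It measured 12.7 and 34.9 CPM in the DAP10 libraries, against 1266 and 633 CPM in the DAP5 libraries. The libraries of the 2 stages did not overlap, as the choice of single genes required, and the replicates of each stage were also well apart. The log2 fold change was -5.32 ± 0.82 (SE, edgeR FDR = 0.00482), and ran from -6.24 without DAP10 replicate 2 to -4.74 without DAP5 replicate 1. The later libraries gave 0.483 and 2.93 CPM at DAP20 and 0.0593 and 0 CPM at DAP30.

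Lus10017674.g.BGIv1.0 followed it, with 21.8 and 82.4 CPM in the DAP10 libraries against 1945 and 1288 CPM in the DAP5 libraries. The log2 fold change was -4.96 ± 0.67 (SE, edgeR FDR = 0.00299), -6.22 without DAP10 replicate 2 and -4.30 without DAP10 replicate 1. Both DAP10 libraries lay far below both DAP5 libraries. At both later stages it stayed below 1 CPM in every library, at 0.483 and 0.561 CPM at DAP20 and 0.237 and 0.718 CPM at DAP30.

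**Figure D3:**
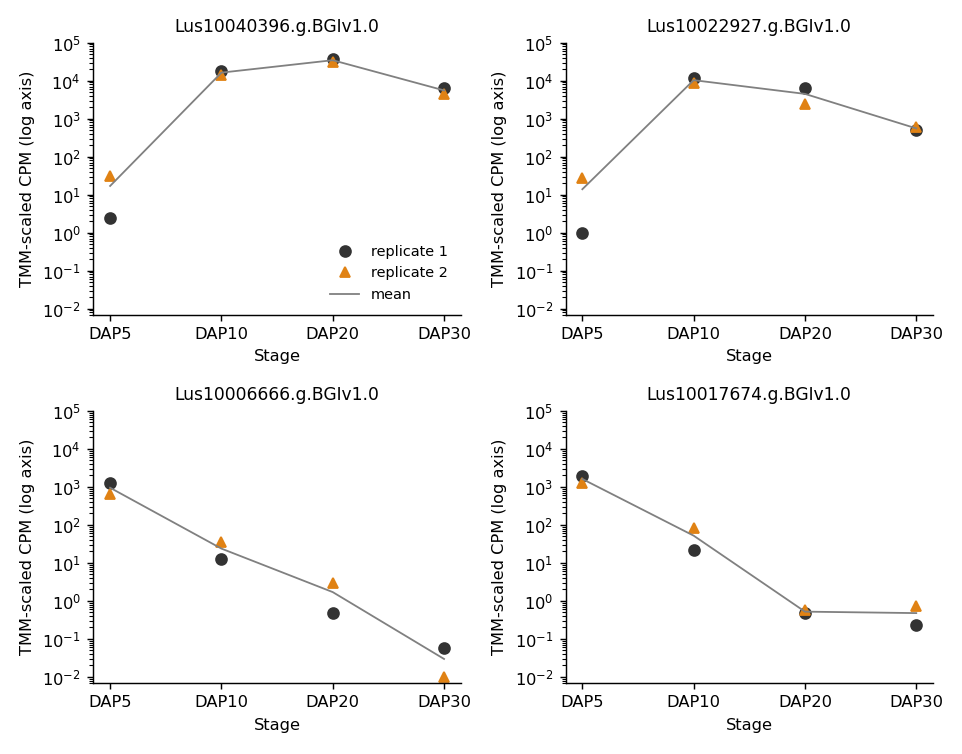
Levels of 4 genes (vertical, TMM-scaled CPM, log axis) at the 4 stages (horizontal), with circles for replicate 1, triangles for replicate 2 and a line through the means, and values below 0.01 CPM drawn at 0.01. The genes that rose stand at 8884 CPM or more in the DAP10 libraries and at 31.5 CPM or less in the DAP5 libraries, and the genes that fell stand at 2.93 CPM or less at DAP20 and DAP30.

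Replicate 2 stood nearer to the other stage than replicate 1 in the genes that moved most, at both stages. In all of the 10 genes with the largest gain, DAP5 replicate 2 was above DAP5 replicate 1, by 2.23 to 26.7 times, and in 9 of them DAP10 replicate 1 was above DAP10 replicate 2. Among the 390 genes that rose 16-fold or more, DAP10 replicate 1 was the higher replicate in 270 and replicate 2 in 120, while at DAP5 replicate 2 was the higher in 227 and replicate 1 in 135. Among the 310 genes that fell 16-fold or more, DAP10 replicate 2 was the higher in 183 and replicate 1 in 78, while at DAP5 replicate 1 was the higher in 212 and replicate 2 in 98. Among genes that were not called, replicate 2 was the higher in 49.6% at DAP10 and 49.8% at DAP5. Genes are not independent of each other, so these counts describe the 4 libraries, and the part of this difference between replicates in the sizes of the changes was not tested.

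Some genes went from near no counts to a clear level, and others did the opposite. On library totals, 55 genes reached 10 CPM in each DAP10 library with a mean below 0.5 CPM at DAP5, and 66 genes reached 10 CPM in each DAP5 library with a mean below 0.5 CPM at DAP10. All 121 were among the called genes, against 23.6% of all genes tested, which their choice from the same libraries made likely in advance. The 55 genes had medians of 36.8 and 27.3 CPM in the DAP10 libraries, against 0.113 and 0.217 CPM in the DAP5 libraries. The 66 genes had medians of 0.0660 and 0.154 CPM in the DAP10 libraries, against 31.5 and 29.0 CPM in the DAP5 libraries. On TMM-scaled CPM the order turned, with 69 genes gained and 51 lost, so these numbers do not show which group was larger. Without DAP5 replicate 2 the number gained was 94 on library totals.

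The DAP20 and DAP30 libraries, which did not choose these genes, show most of the lost genes still low and the gained genes spread widely. Of the 66 genes lost by DAP10, 64 had a mean below 0.5 CPM at both DAP20 and DAP30, and 0 had 10 CPM or more at either stage. Of the 55 genes gained by DAP10, 36 had a mean of at least 10 CPM at DAP20 and 30 at DAP30, 30 of them at both, while 7 were below 0.5 CPM at both. The median stage mean of the gained genes was 32.0 CPM at DAP10, 41.6 CPM at DAP20 and 36.8 CPM at DAP30. With no count at all in place of a mean below 0.5 CPM, 6 genes were gained and 12 lost.

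**Figure D4:**
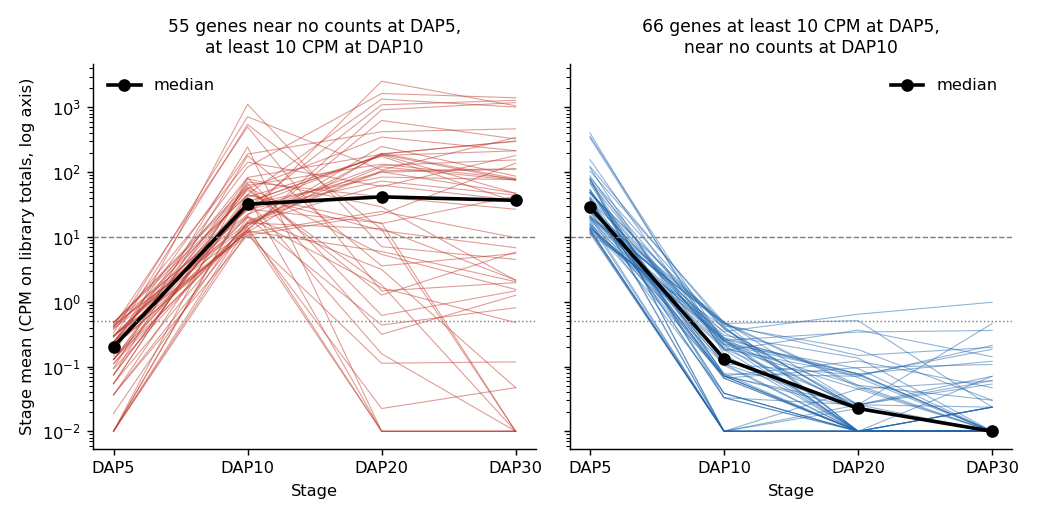
Stage means (vertical, CPM on library totals, log axis) of the 55 genes gained and the 66 genes lost by DAP10, 1 line per gene, with the median in black, dashed and dotted lines at 10 and 0.5 CPM, and values below 0.01 CPM drawn at 0.01. The lost genes stay under 10 CPM at DAP20 and DAP30, and the gained genes spread widely, with 30 at 10 CPM or more at both stages.

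The largest fitted changes were of genes with few or no counts at the lower stage. Of the 5 with the largest rise, 3 had no count in either DAP5 library, and these were at least 833-fold to 2015-fold higher at DAP10, with bounds from 398-fold, without DAP5 replicate 2, to 2961-fold, without DAP10 replicate 2. The other 2 had 32113 and 134911 counts at DAP10 against 8 and 62 at DAP5, ratios of 10084 and 5467. Their log2 fold changes, 13.20 and 12.40, became 14.89 and 13.09 without DAP5 replicate 2, and 12.47 and 11.94 without DAP5 replicate 1. These 5 genes spanned 31.9 to 4325 CPM at DAP10, and their DAP30 means spanned 0 to 275 CPM, with 1 gene above its DAP10 level. The 5 with the largest fall had 12.6 to 57.2 CPM at DAP5 and no count at DAP10, at least 128-fold to 586-fold lower, with bounds from 59.0-fold, without DAP10 replicate 1, to 618-fold, without DAP5 replicate 2. Their edgeR FDR ran from 0.00029 to 0.00317, and 4 of the 5 had no count in any DAP20 or DAP30 library.

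With TMM scaling, more of the genes that rose kept or passed their DAP10 level than returned to their DAP5 level. Most of the genes that fell stayed down. The 3564 genes that rose had a median level of 8.49 CPM at DAP5 and 23.6 CPM at DAP10, then 21.4 CPM at DAP20 and 21.1 CPM at DAP30. Their mean at both later stages was at or above the DAP10 mean in 1408 genes (39.5%), and at or below the DAP5 mean in 748 (21.0%). The 3208 genes that fell had a median level of 20.1 CPM at DAP5 and 7.02 CPM at DAP10, then 5.02 CPM at DAP20 and 4.08 CPM at DAP30. Of the genes that rose, 124 had a mean under 1 CPM at DAP10, against 686 at DAP5. Of the genes that fell, 660 had a mean under 1 CPM at DAP10, against 91 at DAP5, and 1136 at DAP30. Of the falling genes, 1708 (53.2%) were at or below the DAP10 mean at both later stages, and 344 (10.7%) were back at or above the DAP5 mean at both. These positions use the same DAP5 and DAP10 means as the calls, which by selection lie apart, so they describe the genes and test nothing. They also rest on the TMM factors, which were 1.39 and 1.45 at DAP5, 1.09 and 1.09 at DAP10, and 0.795 and 0.757 at DAP30. On library totals the later levels would stand lower beside those of DAP5 and DAP10, and the positions were not recomputed on that scale.

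On TMM-scaled CPM, the only scale used for it, the stage with the highest mean divided the rising genes into 3 groups. It was DAP10 for 1601 (44.9%), DAP20 for 692 (19.4%) and DAP30 for 1271 (35.7%). Over all genes tested it was DAP5 for 30.4%, DAP10 for 21.2%, DAP20 for 18.0% and DAP30 for 30.4%. A gene that rose cannot be highest at DAP5, which by itself raises the shares of the other stages among rising genes. The 2 sets of shares are therefore not alike, and no excess at a stage is read from them. The group highest at DAP10 had median levels of 8.90, 27.5, 7.0 and 4.68 CPM over the 4 stages, so its DAP30 level lay below the DAP5 level. The group highest at DAP20 had 4.93, 16.8, 50.1 and 24.4 CPM, and the group highest at DAP30 had 10.5, 22.9, 39.3 and 69.0 CPM. The most abundant genes of that last group, by level per length, were 2 gene models added by the authors, at 2569 and 5235 CPM at DAP10 against 518 and 1220 CPM at DAP5 (edgeR FDR = 0.0056 and 0.00546), and at 8479 and 9489 CPM at DAP30.

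Among the falling genes the highest stage, on the same scale, was DAP5 for 2528 (78.8%), DAP20 for 182 (5.67%) and DAP30 for 498 (15.5%). The group highest at DAP5 had medians of 21.5, 6.76, 2.55 and 1.71 CPM over the 4 stages. The group highest at DAP30 had medians of 17.2, 7.99, 19.1 and 35.3 CPM, and the group highest at DAP20 had 13.4, 6.76, 22.6 and 9.10 CPM. The median log2 fold change was -1.61 for genes highest at DAP5, -1.15 for those highest at DAP20 and -1.0 for those highest at DAP30, a difference that was not tested and that the split, which uses the same DAP5 means, fixes in part. The 390 genes that rose 16-fold or more had a median of 9.63 CPM at DAP10, against 0.156 CPM at DAP5, and 58 of them were at or below the DAP5 mean at both later stages. Of the 310 genes that fell 16-fold or more, 297 were highest at DAP5 and 5 were back at or above the DAP5 mean at both later stages.

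**Figure D5:**
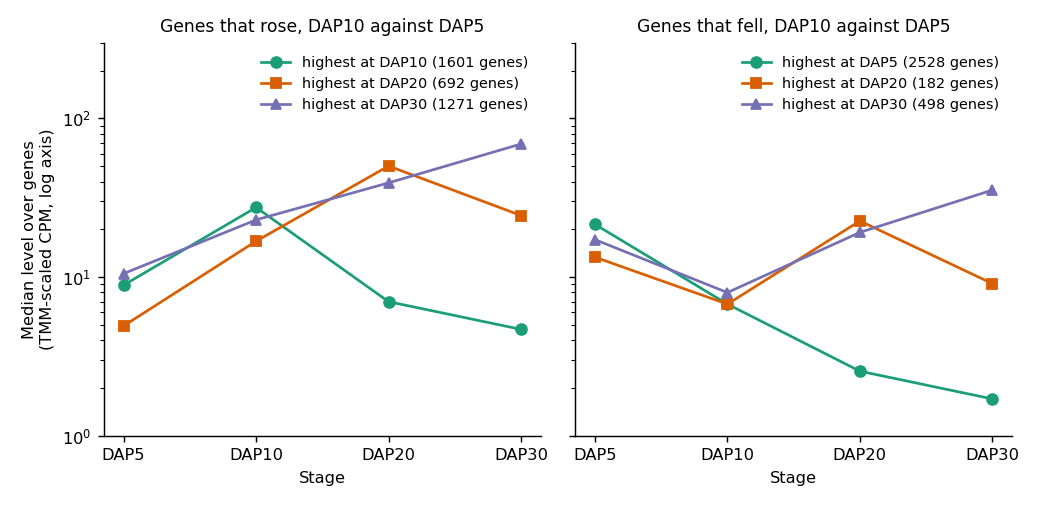
Median level over genes (vertical, TMM-scaled CPM, log axis) at the 4 stages (horizontal) for genes that rose (left) and fell (right) between DAP10 and DAP5, split by the stage with the highest mean. In the left panel the group highest at DAP10 has a median of 4.68 CPM at DAP30 against 69.0 CPM for the group highest at DAP30, and in the right panel the group highest at DAP5 ends at 1.71 CPM.

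DAP30 libraries were also set against DAP20 libraries, a step that shares no compared library with DAP10 against DAP5. Of the 3564 genes that rose by DAP10, 810 (22.7%) were higher at DAP30 than at DAP20 and 713 (20%) were lower. Over all genes tested, 15.1% were higher and 17.4% lower in that step (edgeR). Of the 3208 genes that fell by DAP10, 512 (16%) were higher and 595 (18.5%) lower at DAP30, near the shares over all genes. The rising genes were also the more abundant. The median of the mean CPM over all libraries was 23.3 for them, 11.5 for falling genes and 9.25 for genes not called. The part of abundance in these shares was not tested. Which of the 2 numbers was larger among the rising genes depended on the scaling and the libraries. For this the rising genes were called anew in each setting, so they are not the same 3564 genes. On library totals there were 2100 of them. On library totals 336 were higher at DAP30 and 506 lower. Without DAP20 replicate 1 there were 800 higher and 905 lower, and without DAP20 replicate 2 there were 960 and 1023. Without DAP30 replicate 1 there were 347 higher and 380 lower, and without DAP30 replicate 2 there were 365 and 424. The first number stayed the larger with a DAP10 library left out (228 and 210, then 248 and 234 for replicates 1 and 2) and with a DAP5 library left out (473 and 451, then 447 and 367).

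Most of the genes that were abundant in later seeds were higher at DAP10 than at DAP5. Of the 100 genes with the highest level per length at DAP30, a list that used no DAP10 or DAP5 library, 70 rose by DAP10, 0 fell and 30 had no call, and the log2 fold change had a median of 1.89. Of the corresponding 100 genes of DAP20, 74 were higher and 0 lower, with a median of 2.33. Over all genes tested 12.4% rose, and the median was -0.02. Abundant genes rose more often in general, 35.0% of them between 100 and 1000 CPM and 76.7% at 1000 CPM or more (mean over all 8 libraries). The part of abundance in the 70 and 74 was not tested. Lists of 100 from the compared stages gave 75 rises and 0 falls for DAP10, and 22 rises and 29 falls for DAP5.

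The median length of rising genes was below that of falling genes on the deposited length, which nothing in the sources used here defines. The median length was 1795 bases for genes that rose, 2142 for genes that fell and 2027 for genes not called. Of the 1295 tested gene models added by the authors, 108 (8.34%) rose and 56 (4.32%) fell, against 3456 (12.6%) and 3152 (11.5%) of the 27454 annotated genes. The added models had a median length of 1502 bases, and their part in the difference in length was not tested.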

How the data were processed

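RNA was sequenced from 8 flax seed libraries, made from TRIzol-extracted total RNA with the NEBNext Ultra kit, per the labels' protocols. A single table was deposited by the authors, holding whole read counts for each gene, not normalized, beside a gene length, per the file headers. Which aligner, counter, genome build and strand setting were used is not given in the sources here, so overlapping genes and near-identical copies could not be told apart. Columns were matched through the library code in each sample's description.

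Counts were analysed in R 4.3.3 with edgeR 4.0.16. Genes were kept by filterByExpr (minimum count 10, minimum total 15), libraries were scaled by TMM, and a quasi-likelihood model of stage was fitted to all 8 libraries. Adjustment was by Benjamini-Hochberg over all genes tested, and an FDR below 0.05 was a call. The standard error of a log2 fold change is its size over the square root of F. A fold against no count is a bound set by 3 counts over both libraries and covers counting error only. Levels are TMM-scaled CPM, and detection of gained and lost genes and shares of counts use library totals. DESeq2 1.42.0 and limma-voom (limma 3.58.1) served as alternatives.

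Single genes were taken by rule from called genes whose libraries do not overlap and which have at least 10 CPM at the higher stage: the 5 largest rises and 5 largest falls by fold, the 4 largest gains and 4 largest losses per length, and 2 more for each stage of highest level. As the table holds no gene names, IDs are printed for the first 2 gains and 2 losses per length only, and planned lists of pathway and marker genes were not applied. The groups, lists and thresholds were chosen with earlier results of these data known.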

Additional observations from a re-analysis of the deposited data

How the results depend on the processing

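Of 52 summary values recomputed under another setting with every library kept, 31 stayed within 1.5 times the reported value for a number of genes, or within 1 SD between replicates for a share of counts. That range is wide enough for the order of 2 numbers to turn. With library totals 2100 genes rose and 7002 fell, and with only DAP5 and DAP10 in the fit 4818 rose and 4853 fell. Testing for changes beyond 2-fold left 1683 genes, 976 higher and 707 lower, fewer by construction. DESeq2 called 7496 genes, limma-voom 8168. Of the rising genes 1977 (55.5%) and of the falling genes 2579 (80.4%) were called the same way by all of 6 alternatives: DESeq2 size factors, library totals, DESeq2, limma-voom, the fit of the 2 stages alone and the replicate block. In all 4 fits that left out a DAP10 or DAP5 library, 1037 (29.1%) and 539 (16.8%) were. Gained and lost genes numbered 6 and 12 with no count as the low limit, and 104 and 127 with 5 CPM as the high one. On TMM-scaled CPM they numbered 69 and 51, the opposite order.

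The genes that rose held 27.9% of the counts at DAP10 and 5.54% at DAP5 with calls on library totals, and 44.0% and 16.9% with calls from the fit of the 2 stages. The genes that fell held 14.6% and 35.8% on library totals, and 8.11% and 25.6% in the fit of the 2 stages. On library totals the rising and falling genes were also called anew, 2100 and 7002 in number. Of these, 336 rising genes were higher at DAP30 than at DAP20 and 506 lower, the opposite order to that reported. Of the falling genes 935 were higher and 1330 lower. The cause was not tested.

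With each library left out in turn, the genes called ran from 1818 to 9204, those that rose from 1196 to 4686 and those that fell from 622 to 4522. The highest numbers came without a DAP20 library, the stage whose replicates differed most. Rising and falling genes were called anew in each of these fits. Gained genes ran from 53 to 94 and lost genes from 62 to 88. Between DAP20 and DAP30, rising genes that were higher ran from 228 to 960 and lower from 210 to 1023, and falling genes that were higher ran from 116 to 628 and lower from 91 to 954. None of the 30 genes taken by rule reversed under any setting, which was likely in advance, as they were taken from called genes without overlap. With every library kept, 6 or fewer lost their call in any single setting, and not always the same genes. Some also lost it with a library left out.

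The replicate numbers are shared by the stages, but no label says that they pair libraries, and the deviations of replicate 1 from the stage mean correlated at 0.09 between DAP10 and DAP5 across genes. With a replicate block 6138 genes were called, 3312 higher and 2826 lower.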
